A study of Mus musculus with 9 samples.

Results

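The gene for the glucocorticoid receptor, Nr3c1, was followed with Zbtb16, Klf9 and Pdk4, 3 genes that glucocorticoids are known to induce. They were read in mouse kidney, in tumours that lack Vhl and Pbrm1 and in normal cortex. These are 4 of the 14052 genes in the deposited count table. All 4 were picked by name because earlier results from the same 9 libraries had shown their tumour levels, so the difference between tumour and normal tissue is given for them as a description and was not tested. The tumours, sampled in 5 areas (R2, R3, R4, R5 and L4), grew in animals homozygous for floxed alleles of both genes and carrying Ksp-driven Cre (Vhl F/F, Pbrm1 F/F, Ksp-Cre), on a mixed background of C57BL/6, BALB/c and 129. The Cre is driven from the promoter of Cdh16, which is active in tubule epithelium, so cells of other origin in the tumour keep both genes. Normal renal cortex came from wild-type C57BL/6 mice and was sampled in 4 areas (R1, R2, L1 and L2). All mice ate a normal diet and were about 1 year old. The sample descriptions carry the same number in all tumour areas and another in all normal areas, so areas of a group may all stem from 1 animal, in which case p-values reflect area-to-area spread alone. Strain and group cannot be told apart, and neither the time of day of collection nor the circulating hormone was given in the labels.

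The glucocorticoid receptor is a nuclear receptor that sits in the cytoplasm with heat shock chaperones, moves to the nucleus once it binds corticosterone (the main glucocorticoid of the mouse), and there raises some genes and restrains others, many of them inflammatory. ZBTB16, also called PLZF, and KLF9 are zinc finger transcription factors, and transcripts of both rise within hours of hormone. PDK4 is a mitochondrial kinase that switches off pyruvate dehydrogenase, so that carbon from glucose is spared during fasting. Pdk4 also answers to PPAR alpha, and Klf9 to the circadian clock. In the kidney the receptor is present in most cells, while the related mineralocorticoid receptor, Nr3c2, acts in the distal nephron.

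The annotated promoters of 2 target genes, from 250 bases before to 50 bases after the start, are shown because they hold the start sites of target genes that stood lower in the tumours (none is given for Zbtb16). Both sequences are from RefSeq on GRCm38.p6, read 5′ to 3′ on the strand of the gene, and capitals mark the letters found in a search for 5 motifs on both strands.
Klf9 (chr19:23140976-23141275, plus strand): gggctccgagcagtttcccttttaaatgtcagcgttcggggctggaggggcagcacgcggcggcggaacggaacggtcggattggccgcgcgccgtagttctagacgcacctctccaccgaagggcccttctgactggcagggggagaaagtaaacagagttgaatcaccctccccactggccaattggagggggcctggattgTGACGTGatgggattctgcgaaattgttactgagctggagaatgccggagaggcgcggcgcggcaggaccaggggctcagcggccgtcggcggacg
Pdk4 (chr6:5496229-5496528, minus strand): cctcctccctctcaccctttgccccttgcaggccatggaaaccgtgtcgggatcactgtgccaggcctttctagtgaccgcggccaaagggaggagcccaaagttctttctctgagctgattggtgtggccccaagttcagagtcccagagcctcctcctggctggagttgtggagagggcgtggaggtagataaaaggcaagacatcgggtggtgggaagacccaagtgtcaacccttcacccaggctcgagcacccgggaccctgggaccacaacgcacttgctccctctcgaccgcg
The Klf9 window held TGACGT, the core of a cyclic AMP response element, and overlapping it ACGTG, the core of a hypoxia response element. Of 32851 promoters of the same length, 7.51% held the first and 19.6% the second. Neither window held the full palindromic glucocorticoid response element (both arms, spaced by any 3 bases), which 0.00913% of promoters held, its single arm AGAACA, which 19.0% held, or the E-box CACGTG, which 7.15% held. These letters describe the windows only, and elements outside them were not searched.

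Counted reads ran from 5143527 to 8250261 per library. Values are CPM, read counts divided by library size, scaled by TMM, a method that sets libraries to a common level through the bulk of their genes. Plus-or-minus values after a mean CPM are SDs over 5 tumour or 4 normal areas, while a log2 fold change, which sets tumour against normal, carries its standard error from edgeR. An adjusted p (edgeR quasi-likelihood test, Benjamini-Hochberg over 7020 tested genes) under 0.05 counted as a call. The median log2 fold change of all tested genes was 0.06, and 0.35 with libraries scaled by size alone. Because 3989 genes (28.4%) had no count in any library, Hspa8, a chaperone that nearly every cell uses, among them, a gene listed at 0 in all 9 areas is only named as such. No exon of the 4 genes overlapped another gene, and no other gene shared 100 or more bases with them at 95% identity, in the GENCODE M21 annotation. The deleted genes were read over their whole length, not over the floxed exons: Vhl stood at 45.1 to 75.7 CPM in tumour and 97.7 to 108 CPM in normal areas, without overlap, while Pbrm1, at 106 to 162 and 141 to 164 CPM, overlapped and so does not check the labels. Markers of the labelled tissue were present: 8 of 9 proximal tubule genes passed the filter on low counts, with summed levels of 30760 to 32960 CPM in normal and 8225 to 15990 CPM in tumour areas.

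The receptor gene stood about 5-fold lower in the tumours. Nr3c1 (ENSMUSG00000024431) read 30.5, 33.5, 27.1 and 29.8 CPM in normal areas L1, L2, R1 and R2. It read 5.71 CPM in tumour area L4, 7.72 in R2, 3.45 in R3, 8.42 in R4 and 4.72 in R5. All tumour areas lay below all normal areas, and the lowest normal area was 3.21 times the highest tumour area. The means were 30.2 ± 2.66 and 6.00 ± 2.07 CPM, for a log2 fold change of -2.32 ± 0.21. Only 195 reads were counted in the 5 tumour areas together, 19 of them in R3. The coefficient of variation among tumour areas was 34.4%, where counting alone gives 16.9%, and among normal areas it was 8.81%, where counting alone gives 7.72%. Nr3c1 has 9 annotated transcripts, and the table does not separate them. In bulk tissue, fewer cells that use a gene and less RNA per cell cannot be told apart, here and for every gene below.

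Zbtb16 was the gene of the 4 with the lowest tumour level relative to normal tissue. Zbtb16 (ENSMUSG00000066687) read 140, 160, 154 and 157 CPM in normal areas L1, L2, R1 and R2. In tumour areas it read 12.7 CPM in L4, 9.73 in R2, 9.98 in R3, 7.84 in R4 and 7.91 in R5. The groups did not overlap, and the lowest normal area was 11.03 times the highest tumour area. Means of 152 ± 8.80 and 9.63 ± 1.97 CPM gave a log2 fold change of -3.98 ± 0.12, the 16th lowest of 7020 tested genes. Its tumour areas stood at 5.14% to 8.31% of the normal mean, with L4 at the top. The coefficient of variation among tumour areas was 20.45%, where counting alone gives 12.9%, with 52 to 91 reads per tumour area.

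Klf9 was abundant in both tissues and stood at about 51.2% of its normal level in the tumours. Klf9 (ENSMUSG00000033863) read 1508, 1516, 1565 and 1527 CPM in normal areas L1, L2, R1 and R2, a spread of 1.64% around the mean. In tumour areas it read 617 CPM in L4, 856 in R2, 860 in R3, 829 in R4 and 750 in R5. R2, R3 and R4 lay close together, R5 was lower and L4 lowest, and no tumour area reached the normal range. The means were 1529 ± 25.1 and 782 ± 102 CPM (log2 fold change -0.97 ± 0.10). With 4434 to 11118 reads per library, the spread among tumour areas was 13.1%, where counting alone gives 1.42%.

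Pdk4 had the smallest difference and the widest tumour range relative to it. Pdk4 (ENSMUSG00000019577) read 236, 220, 210 and 209 CPM in normal areas L1, L2, R1 and R2. In tumour areas it read 187 CPM in L4 and 161 in R5, against 95.7 in R2, 119 in R3 and 107 in R4. Areas L4 and R5 came near the normal range without entering it, and the lowest normal area was 1.12 times L4. The means were 219 ± 12.5 and 134 ± 38.6 CPM (log2 fold change -0.70 ± 0.18). With libraries scaled by size alone, L4 read 218 CPM and lay above the normal range of 187 to 212 CPM, so that the groups were no longer apart, and the log2 fold change was -0.40. The other 3 genes kept the groups apart under that scaling. All 4 genes thus had every tumour area below every normal area under TMM, as did 33.0% of all tested genes.

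**Figure D1:**
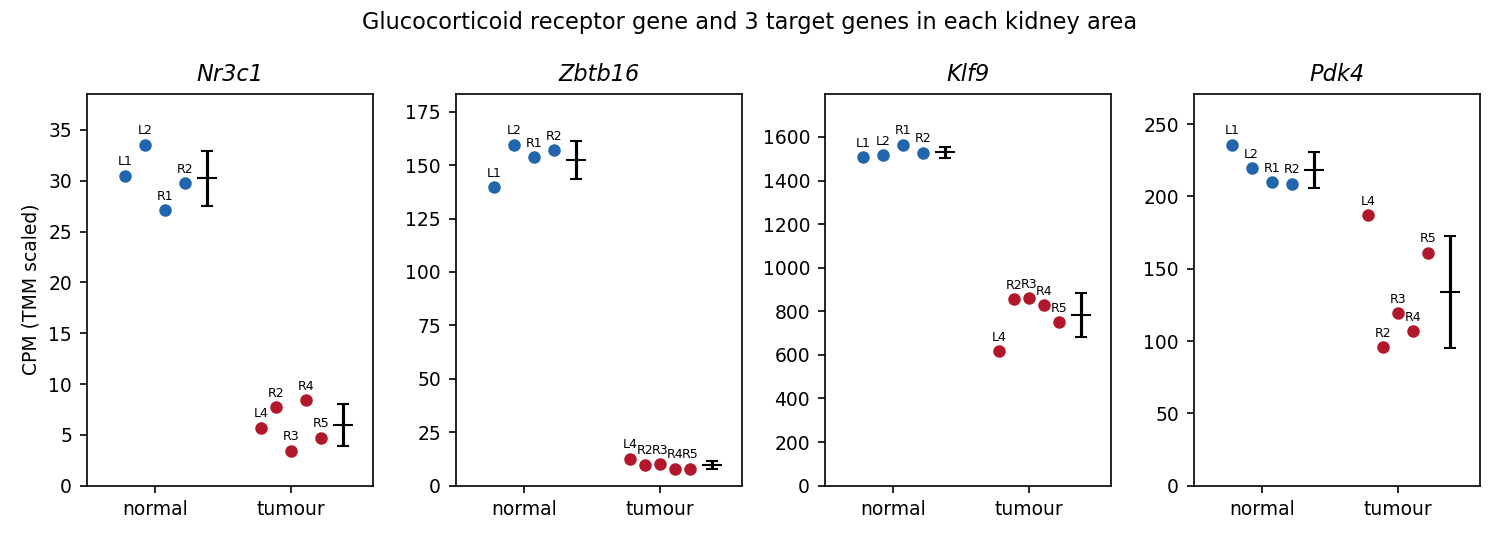
CPM (TMM scaled, linear axes from 0) of Nr3c1, Zbtb16, Klf9 and Pdk4 in 4 normal areas (blue) and 5 tumour areas (red), each point 1 library with its area name; black bars are the mean ± SD. In all 4 panels the tumour areas lie below the normal areas, by the widest margin for Zbtb16 and the narrowest for Pdk4, where L4 and R5 stand highest.

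The 4 genes did not vary together among the tumour areas. Nr3c1 was lowest in R3, at 11.4% of its normal mean, and highest in R4, at 27.9%. Pdk4 ran from 43.8% in R2 to 85.5% in L4, while Klf9 was lowest in the same L4, at 40.4%. Zbtb16, at 8.31% in L4, was highest there. Gene ratios taken within 1 library do not depend on how libraries are scaled. There were 84.7 ± 21.5 reads of Klf9 for each read of Zbtb16 in tumour areas, against 10.05 ± 0.566 in normal areas, with no overlap. The ratio of Zbtb16 to Nr3c1 reads was 5.07 ± 0.498 in normal and 1.80 ± 0.780 in tumour areas, again without overlap, and ran from 0.931 in R4 to 2.90 in R3. Both ratios show unequal change of the paired genes and say nothing of either alone. For Klf9 over Pdk4 the groups overlapped: the ratio was 7.02 ± 0.475 in normal areas and lay at 7.20 to 8.95 in R2, R3 and R4, but at 4.65 in R5 and 3.30 in L4.

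Markers of fat cells and urothelium also set L4 and R5 apart. The summed level of 2 fat cell genes (of 5 listed, none of the 2 at 0) was 144 CPM in L4 and 31.8 CPM in R5, against 0.336 to 3.34 CPM in R2, R3 and R4 and 1.62 to 6.41 CPM in normal areas. The 6 urothelial genes summed to 1097 CPM in L4 and 197 CPM in R5, against 16.7 to 61.8 CPM in R2, R3 and R4, and 0.830 to 5.18 CPM in normal areas. Fibroblast and mural cell markers (4 of 5 genes) summed to 828 to 2552 CPM in tumour and 191 to 214 CPM in normal areas. Leukocyte markers (6 of 7 genes, Ptprc at 0) summed to 764 to 1945 and 77.7 to 103 CPM. Both sums were highest in L4 and next highest in R5, at 1689 CPM for fibroblast and mural cells and 1366 CPM for leukocytes. Of the 4 fibroblast and mural cell genes, 3 were called higher, while Pdgfrb was called lower (-0.65), though not with library size alone. Among 4 tested leukocyte genes, 3 were called higher, while Csf1r did not pass (0.32), though it did with library size alone (0.61). Without L4 and R5 the log2 fold change was -1.01 for Pdk4, -0.84 for Klf9, -2.17 for Nr3c1 and -4.05 for Zbtb16, and the part of these cells in the levels was not tested. Of 7 adrenal cortex genes, 4 were in the table, Cyp11b2 was at 0, and the sum was at most 0.557 CPM in any tumour and 0.216 CPM in any normal area.

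**Figure D2:**
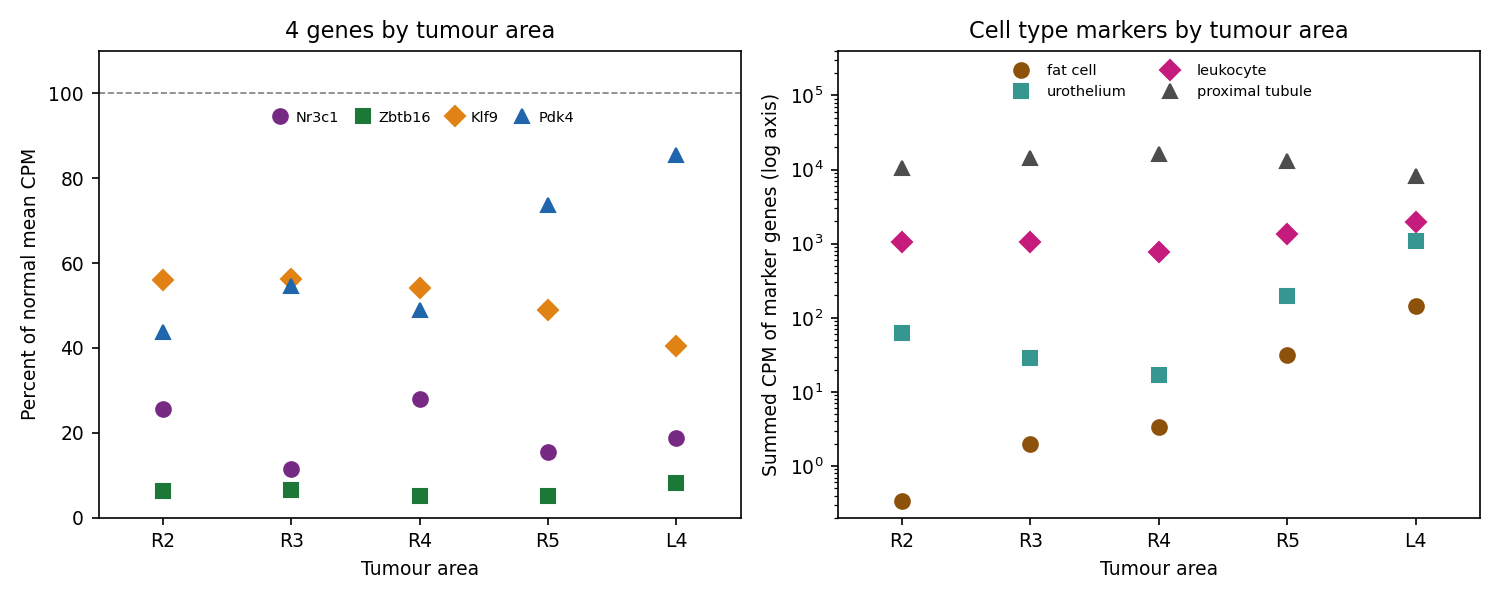
Left, each gene in the 5 tumour areas as a percent of its mean CPM over 4 normal areas (dashed line at 100); right, summed CPM of marker genes of 4 cell types in the same areas on a log axis, each symbol 1 library. Pdk4 stands at 85.5% in L4 and 73.7% in R5, the areas where fat cell, urothelial and leukocyte sums are highest. Klf9 is lowest in L4 and Zbtb16 stays between 5.14% and 8.31%.

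Other glucocorticoid-induced genes moved both ways. Of 40 listed genes, 28 were in the table and 16 were tested, of which 7 rose, 7 fell and 2 did not pass. Over all tested genes, 39.3% were called higher and 35.3% lower, together 74.6%, and the list's 43.8% in each direction lay near these shares. Its median log2 fold change was -0.20. With libraries scaled by size alone, 68.9% of all calls were higher, against 52.7% under TMM, and the list still counted 7 and 7. Per2 and Per1, clock repressors with glucocorticoid response elements, fell from 223 ± 1.43 to 18.6 ± 2.73 CPM (-3.58 ± 0.09, adjusted p = 4.55e-09 in edgeR) and from 50.2 ± 2.22 to 15.3 ± 0.974 CPM (-1.71 ± 0.08). Fam107a, a stress-responsive gene of the actin cytoskeleton, fell by 1.76 on the log2 scale, and the other 4 that fell were Usp2, Irs2, Lpin1 and Glul, at -1.66 to -1.08. Igfbp1, a secreted carrier of insulin-like growth factors, rose from 1.98 ± 0.761 to 345 ± 159 CPM (7.39 ± 0.49, adjusted p = 5.04e-07 in edgeR). Bcl6, a transcriptional repressor that belongs to the same zinc finger family as ZBTB16, rose from 39.8 ± 3.76 to 264 ± 22.7 CPM, and Nfkbia, the inhibitor of NF-kB, from 80.2 ± 0.810 to 265 ± 33.1 CPM. The other 4 that rose were Hif3a (1.16), Cdkn1a (0.93), Fbxo32 (0.76) and Tgm2 (0.17, adjusted p = 0.0407 in edgeR). Tgm2 lost its call with RLE factors, with no filter, and without tumour R2 or any 1 normal area, with adjusted p up to 0.0971.

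Several textbook targets gave little or no reading. Fkbp5, a chaperone that dampens the receptor, held 48 reads in the normal areas and 5 in the tumour areas, and missed the filter. In CPM that was 1.21 to 2.99 in normal and 0 to 0.304 in tumour areas, so the groups were apart at a depth where 3 reads are worth 0.409 to 0.649 CPM. Tsc22d3 (GILZ), Sgk1, Dusp1 and Klf15 were listed at 0 in all 9 areas, and Mt1 and Mt2 were not analysed here.

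**Figure D3:**
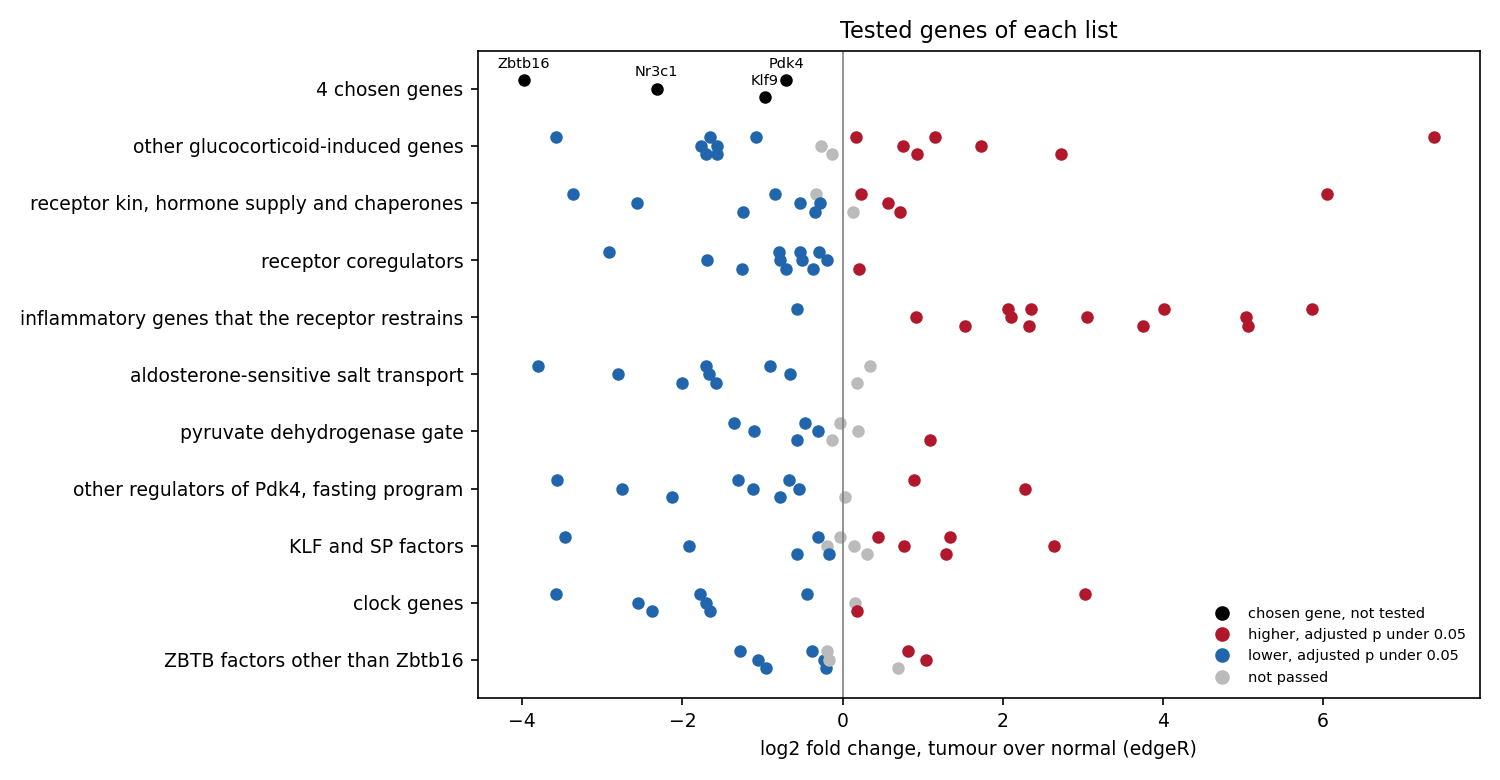
log2 fold change (tumour over normal, edgeR) of each tested gene in 10 lists, with the 4 chosen genes in black at the top, called genes in red (higher) or blue (lower) and genes that did not pass in grey. Other glucocorticoid-induced genes lie on both sides of 0, coregulators mostly below it and inflammatory genes mostly above it.

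Of 26 listed genes that supply the hormone or carry the receptor, 13 were tested, and 4 rose and 7 fell (30.8% and 53.8%, beside 39.3% and 35.3% of all tested genes), or 5 and 5 with libraries scaled by size alone. The mineralocorticoid receptor gene Nr3c2 fell from 5.36 ± 0.544 to 0.506 ± 0.379 CPM (-3.37 ± 0.35, adjusted p = 9.96e-06 in edgeR). Hsd11b2, whose enzyme inactivates corticosterone in aldosterone target cells, fell from 478 ± 15.01 to 80.6 ± 39.5 CPM (-2.57 ± 0.35). Its reactivating counterpart Hsd11b1 held 8 reads in normal and 0 in tumour areas, too few for a comparison. Collecting duct markers, Hsd11b2 among them, summed to 1013 to 1073 CPM in normal and 59.6 to 286 CPM in tumour areas, and their part was not tested. Serpina6, the corticosteroid-binding globulin of plasma, held 1 read in the normal and 132 in the tumour areas, a ratio of 94.2 (95% exact counting interval 16.6 to 3750). Its fitted log2 value of 6.04 depends on that read, which lay in normal L2, and was 7.65 without that area.

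Among the chaperones, Hsp90aa1 fell from 85.3 ± 3.49 to 36.1 ± 4.19 CPM (-1.24 ± 0.08, adjusted p = 6.09e-07 in edgeR). Hsp90ab1, the constitutive form, fell by 0.28 on the log2 scale, but read 0.01 higher and was not called with libraries scaled by size alone (adjusted p = 0.855 in edgeR). The cochaperone Ptges3 (p23) rose by 0.71 ± 0.09, and Stub1, a ubiquitin ligase that works with chaperones, by 0.57 ± 0.05. Hsp90ab1 and Ptges3 have processed pseudogenes, and whether reads were shared with those was not tested. Fkbp4 was listed at 0.

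Receptor coregulators were called lower more often than the background share. Of 21 listed genes 12 were tested, and 11 fell and 1 rose (91.7% lower, against 35.3% of all tested genes), with a median log2 fold change of -0.61. With libraries scaled by size alone 7 fell and 1 rose. The coactivators Ncoa2 and Ncoa1 fell from 36.8 ± 3.91 to 4.86 ± 1.41 CPM (-2.92 ± 0.19, adjusted p = 4.89e-07 in edgeR) and from 51.8 ± 4.77 to 16.1 ± 2.80 CPM (-1.69 ± 0.13). The corepressor Ncor1, which works against them, fell from 161 ± 5.93 to 67.7 ± 7.49 CPM (-1.25 ± 0.08). Smarcd1, a subunit of the BAF remodelling complex, rose by 0.20 ± 0.06.

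Inflammatory genes that the receptor is known to restrain were higher in the tumours. Of 23 listed genes 13 were tested, and 12 rose and 1 fell (92.3% and 7.69%, beside 39.3% and 35.3% of all tested genes). The median log2 fold change was 2.35, against 0.06 over all tested genes. Mmp3, a matrix protease, rose from 0.475 ± 0.240 to 29.0 ± 15.9 CPM (5.86 ± 0.59, and 5.16 without L4 and R5). The monocyte chemokine Ccl7 rose by 5.06 ± 0.68, and by 4.33 without L4 and R5, and the cytokine Il1b by 5.03 ± 0.30. Mmp13, the single gene that fell (-0.57 ± 0.22, adjusted p = 0.0367 in edgeR), lost its call when any of 6 areas was left out in turn, with adjusted p of 0.0579 to 0.123, and its groups overlapped. The leukocyte sum given above lay over its normal range in every tumour area, and its part was not tested.

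A list of aldosterone-sensitive salt transport genes was read, which mixes carriers and channels with regulators such as Klhl3. Of 10 tested genes (of 15 listed) 8 fell and none rose (80.0% lower, against 35.3% of all tested genes). Because the list is mixed, its count is no measure of hormone action. Klhl3, an adaptor that marks WNK kinases for degradation, fell from 106 ± 13.1 to 7.53 ± 2.95 CPM (-3.81 ± 0.23, adjusted p = 3.19e-07 in edgeR). Wnk1, one of those kinases, fell by 2.80 ± 0.23 on the log2 scale, and the thick limb carrier Slc12a1 from 295 ± 38.8 to 73.7 ± 33.4 CPM. Markers of the distal tubule and thick limb (7 genes, Cldn16 and Pvalb at 0) summed to 10150 to 10400 CPM in normal and 1501 to 6713 CPM in tumour areas. Slc12a1 and Slc12a3 are in both lists, so the marker sum is not separate from the salt genes. The part of these cells was not tested.

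Around Pdk4, of 16 listed genes that gate pyruvate 9 were tested, with 5 lower (55.6%, against 35.3% of all tested genes) and 1 higher (11.1%, against 39.3%), or 4 and 3 with libraries scaled by size alone. The sister kinases did not pass: Pdk2 stood at 455 ± 11.6 in normal and 521 ± 91.7 CPM in tumour areas (0.19 ± 0.12, adjusted p = 0.167 in edgeR), and Pdk3 at 57.6 ± 4.07 and 56.4 ± 6.09 CPM (-0.03 ± 0.09, adjusted p = 0.777). Pdk2 passed without tumour L4 (0.30, adjusted p = 0.0021), without L4 and R5 (0.35) and with library size alone (0.48), and Pdk3 with library size alone (0.26). Pdk1 was not analysed here. Of the kinases' target complex, the E1 subunits Pdhb (-1.10 ± 0.08) and Pdha1 (-0.57 ± 0.10) fell. Its E2 core Dlat did not pass (-0.13, adjusted p = 0.315 in edgeR, and 0.16 with library size alone), and Pdhx was called lower at -0.31 but not with library size alone (adjusted p = 0.681 in edgeR). Pcx, pyruvate carboxylase, fell by 1.36 ± 0.12 on the log2 scale. Ldha, lactate dehydrogenase A, rose from 106 ± 5.11 to 226 ± 36.1 CPM (1.09 ± 0.11).

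Other regulators of Pdk4 and genes of the same fasting program were mostly lower, 8 of 11 tested (of 22 listed) against 2 higher (72.7% and 18.2%, where all tested genes gave 35.3% and 39.3%). Esrrg, an orphan receptor of oxidative cells, fell from 15.1 ± 2.51 to 1.29 ± 0.558 CPM (-3.57 ± 0.26, adjusted p = 9.42e-07 in edgeR). Ppara, the fatty acid receptor that drives the fasting program, fell by 2.76 ± 0.15 on the log2 scale. Pparg, the fat cell receptor, rose (2.28 ± 0.62), with 26.9 CPM in L4, and by 1.54 without that area and 1.25 without L4 and R5. The coactivator gene Ppargc1b rose by 0.90 ± 0.19. Ppargc1a, called lower, was counted both here and among the receptor coregulators, so those counts are not separate.

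Relatives of Klf9 and Zbtb16 moved both ways. Of 14 tested KLF and SP factors (of 25 listed), 5 rose, 5 fell and 4 did not pass (35.7% in each direction, near the 39.3% higher and 35.3% lower of all tested genes), and with library size alone 7 rose and 2 fell. Klf6 and Klf4, both early response factors, rose from 236 ± 4.51 to 597 ± 104 CPM (1.34 ± 0.11) and from 44.5 ± 3.31 to 108 ± 23.2 CPM (1.29 ± 0.15). Klf5, an epithelial factor, rose by 2.63 ± 0.79 from a normal mean of 0.740 ± 0.285 CPM. Klf12, a repressor, fell from 18.7 ± 1.80 to 1.67 ± 0.588 CPM (-3.47 ± 0.20), and Klf1, a factor of red cell precursors, from 2.86 ± 0.491 to 0.775 ± 0.543 CPM. Sp2 was called lower (-0.57 ± 0.20), but not without normal L1 or L2 (adjusted p = 0.059 and 0.073 in edgeR), without L4 and R5, or with library size alone. Among 11 tested genes (of 21 listed) whose symbols begin with Zbtb, which include Zbtb8os, named for its place rather than its protein, 6 fell and 2 rose (54.5% and 18.2%), or 3 and 3 with library size alone. Zbtb20 fell from 5273 ± 308 to 2163 ± 361 CPM (-1.29 ± 0.13), Zbtb40 by 1.05 on the log2 scale and Zbtb44 by 0.95, while Zbtb7c and Zbtb8a rose by 1.04 ± 0.24 and 0.81 ± 0.16.

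Clock genes were read because Klf9, Per1 and Per2 all follow the clock. Of 10 tested (of 18 listed), 7 fell and 2 rose (of all tested genes, 35.3% fell and 39.3% rose). Per1 and Per2 were counted both here and among the glucocorticoid-induced genes that fell, so those counts are not separate. Nr1d1, the REV-ERB alpha repressor, rose from 14.02 ± 1.84 to 114 ± 9.17 CPM (3.02 ± 0.10, adjusted p = 2.14e-08 in edgeR). Cry1 and Cry2, partners of the PER proteins, fell by 2.55 ± 0.18 and 2.38 ± 0.25 on the log2 scale. Arntl (BMAL1), at 33.6 ± 1.66 against 29.6 ± 1.34 CPM (0.19 ± 0.07, adjusted p = 0.0389 in edgeR), lost its call when any of 7 areas was left out in turn, with adjusted p of 0.0596 to 0.126 over the alternatives that ended it. The sampling time and the group cannot be told apart. Of 15 listed immediate early genes that mark tissue handling only 2 were in the count table, too few to describe the list. Both were tested and rose, Atf3 by 2.69 ± 0.24 and Nr4a1 by 1.75 ± 0.17, where 39.3% of all tested genes rose.

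Genes with the most similar pattern were sought over the 9 areas, by the root mean square difference of log2 CPM relative to the normal mean. For Klf9 these were Castor2, Zbtb44 and Sestd1, at 0.0336, 0.0467 and 0.0624 log2 units, where the median over all genes was 0.846. Castor2 stood at 1233 ± 26.3 CPM in normal and 640 ± 87.7 CPM in tumour areas. For Pdk4 they were Cd55 (0.0804), which restrains complement, Vhl (0.106), the deleted tumour suppressor, and Slc27a1 (0.115), a fatty acid carrier, against a median of 0.758. For Nr3c1 they were Pja2 (0.165), Bicd2 (0.212) and Bdp1 (0.238), against a median of 1.82. For Zbtb16 they were Slx1b (0.300), Dnajc6 (0.399) and Rps3a1 (0.409). Slx1b had no read in any tumour area, and with a smaller constant added before the log only Dnajc6 of these 3 stayed among the nearest, so the list for Zbtb16 rests on that constant. Each set was ranked over the same areas that chose the gene, and the values are descriptions.

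**Figure D4:**
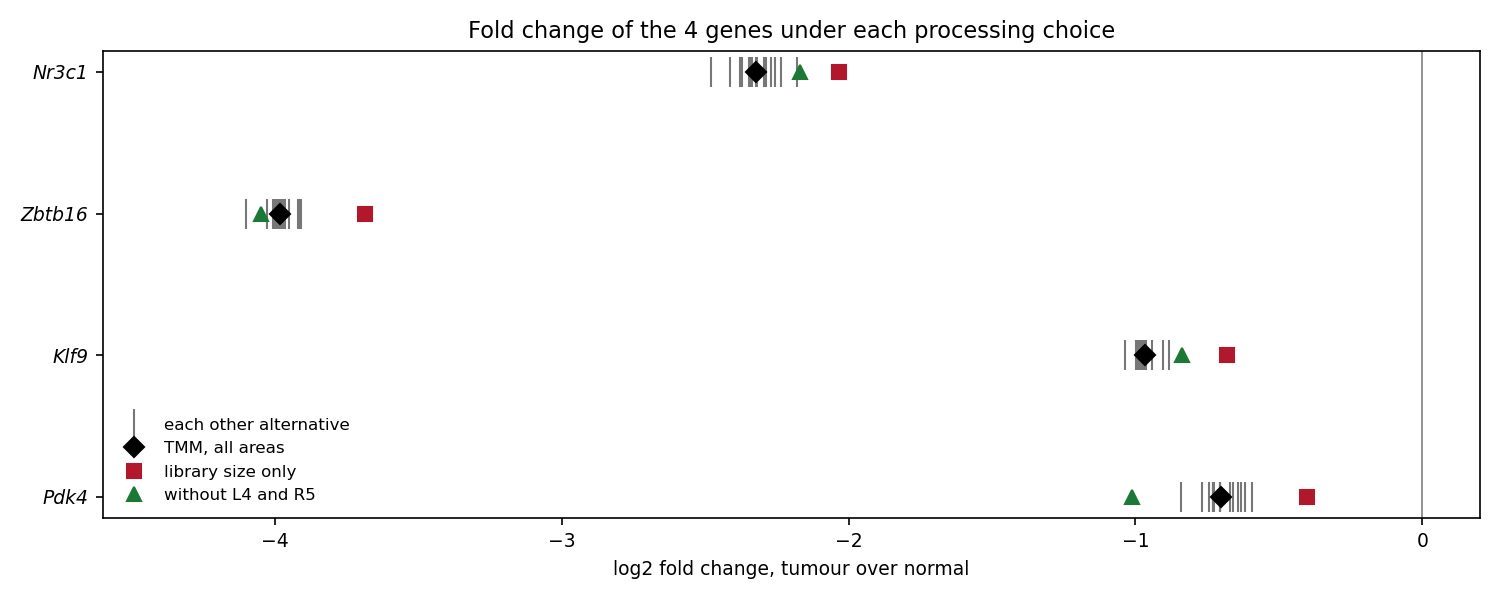
log2 fold change (tumour over normal) of each of the 4 genes under TMM with all areas (diamond), library size alone (square), without tumour areas L4 and R5 (triangle) and each other alternative (grey ticks). All values lie below 0; those of Zbtb16 and Nr3c1 stay far from it and Pdk4 comes nearest, at -0.40 with library size alone.

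Across every alternative tried, the 4 genes stayed lower in the tumours. The log2 fold change lay at -4.10 to -3.69 for Zbtb16, -2.48 to -2.03 for Nr3c1, -1.03 to -0.68 for Klf9 and -1.01 to -0.40 for Pdk4. The order of the 4 was Zbtb16, Nr3c1, Klf9, Pdk4 in all but 1 alternative: without L4 and R5, Pdk4 stood at -1.01 and Klf9 at -0.84. Klf9 and Pdk4 are the neighbours in that order whose values lie closest, 0.10 and 0.18 being their standard errors under TMM.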

How the data were processed

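RNA was sequenced from 5 tumour areas and 4 areas of normal kidney cortex. The deposited values are raw read counts per gene and library. Per the submitters' processing notes, STAR 2.3, HTSeq and edgeR were used with mm9; the strand setting of the counting is not given in the sources used here. Symbols came from GENCODE M21, which matched 14026 of 14052 gene IDs, and none of its coordinates are printed. Genes passing filterByExpr (minimum count 10, minimum total 15), 7020 of them, were fitted in edgeR 4.0.16 (R 4.3.3) with TMM factors (1.04 to 1.17 in tumour, 0.889 to 0.899 in normal areas) and glmQLFTest, tumour against normal, with Benjamini-Hochberg adjustment over all tested genes. The fit was tested on counts simulated from the normal means, in which few genes were changed, some up and some down. It called 83.9% of 93 genes changed 2-fold and 0.125% of 6392 unchanged genes. In the real data 74.6% of tested genes were called, so the simulation does not check the scaling between groups. A floor of 3 counts was worth 0.409 to 0.649 CPM, for counting error only. Members and gene lists were chosen with earlier results of these data known. The genes named are the 4 members, a set of regulators and targets listed by name (such as Fkbp5, Sgk1, Nr3c2 and Pdk2), up to 3 called genes in each direction per list with the largest change (mean of 1 CPM or more where higher), and the 3 nearest patterns per member. Usp2, Irs2, Lpin1, Glul, Hif3a, Cdkn1a, Fbxo32, Tgm2, Dlat and Pdhx were added after their values were seen. In the alternatives, TMM gave way to RLE or upper quartile factors or to library size, the low-count filter was dropped or set at 1 CPM in 4 libraries, DESeq2 1.42.0 or limma-voom (limma 3.58.1) replaced the test, the area letter was a covariate, and areas were left out. One gene that the rule names is not reported here.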

Additional observations from a re-analysis of the deposited data

How the results depend on the processing

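The 4 members kept their direction under every alternative. Of single genes named, Hsp90ab1 (0.01), Dlat (0.16) and Zbtb8os (0.10) changed sign with library size alone, and Pdk3, near 0, did so under 6 alternatives (0.26 with library size alone). A member was taken as stable within 1 SD between areas on the log2 scale, and a count within 1.5 times. By that measure, leaving out 1 area kept 237 values and moved 15, and all other alternatives kept 240 and moved 16. Pdk4, whose areas spread widely, counts as stable although it read -0.40 when scaled by library size and -1.01 once L4 and R5 were dropped, the widest proportional shift of the 4. With library size alone, the log2 fold change was -3.69 for Zbtb16 and -0.68 for Klf9, 7 coregulators were lower, 3 pyruvate gate genes were higher, 2 KLF and SP factors were lower and 3 ZBTB genes were lower. The count of lower inflammatory genes was 0 with upper quartile factors, library size alone, no filter, the area letter as a covariate, or without L4 and R5, and 0 to 1 when each area was left out in turn. Pyruvate gate genes higher numbered 2 without L4 and R5 and 1 to 2 with each area left out. KLF and SP factors lower numbered 3 to 6 with each area left out. Clock genes higher numbered 1 with RLE factors, no filter or DESeq2, and 1 to 2 with each area left out. With a smaller constant before the log, 1 of the 3 genes nearest to Zbtb16 remained. The causes were not tested. No paired analysis was possible because tumour and normal areas came from different animals, floxed with Ksp-Cre and wild-type. The area name R2 occurs in both groups but does not pair them. Of the 4 members Nr3c1 had the fewest reads, 19 to 58 per tumour area, and Nr3c2 and Fkbp5 had fewer still.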
